A study of Mus musculus with 54 samples.

Results

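Messenger RNA of 9 complement genes was followed through mouse macrophages of 15 conditions: the C1q chain genes C1qa, C1qb and C1qc, the alternative pathway genes C3, Cfb and Cfp, the anaphylatoxin receptor genes C3ar1 and C5ar1, and the inhibitor gene Serping1. The members were chosen by their symbols, and all 9 of them were found among the 39179 genes of the count tables. All cells were thioglycolate-elicited peritoneal exudate macrophages of C57BL/6 mice aged 8 to 20 weeks, collected 4 days after the injection and selected by adherence. In the polarization experiment, cells of 3 mice were kept for 24 h without stimulus (M0), with LPS (100 ng/ml) plus IFNγ (50 ng/ml), called M1-like, or with IL-4 (10 ng/ml), called M2-like, and each of the 9 samples was sequenced as 2 technical replicates of single-end 50-base reads.

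The reprogramming experiment had 12 conditions with 3 replicates each, sequenced as paired-end 150-base reads. Untransfected macrophages of the 3 states stood beside mock samples of the same states, which received transfection reagent without siRNA. M2-like macrophages were also transfected with a negative siRNA pool, with a pool against the transcription factor gene E2f1, Myc, Pparg or Stat6, or with these 4 pools combined, and the last are called iM1. Transfected cells were harvested 48 h after transfection and were kept without IL-4 after it, while the methods give 24 h after polarization for M0, M1-like and M2-like cells without transfection and do not name the experiment. The pool against Myc came from another maker than the other 3 targeting pools, so the target and the maker of the pool cannot be told apart. The methods call the 3 replicates of iM1 and of the M0, M1-like and M2-like states biological, and the labels do not say for any condition of this experiment whether the replicates came from separate mice. For the conditions not named there, p-values measure the spread between these samples, which may be technical.

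Complement is a protein cascade that marks microbes and dying cells for uptake and calls in leukocytes. C1q starts the classical pathway and is made largely by macrophages. C3 is the protein on which all pathways meet, factor B (Cfb) and properdin (Cfp) build and stabilize the alternative pathway convertase, C3ar1 and C5ar1 bind the fragments released from C3 and C5, and the C1 inhibitor (Serping1) blocks the proteases C1r and C1s. Most circulating complement comes from the liver, and macrophages add a local supply in tissue.

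The 3 C1q genes are neighbours on chromosome 4 of GRCm38 in the order C1qb (136880129 to 136886187), C1qc (136889804 to 136893065) and C1qa (136895917 to 136898803). They share the minus strand, 3616 bases lie between C1qb and C1qc, and 2851 bases lie between C1qc and C1qa. C3 (chromosome 17, 57203970 to 57228136) and Cfb (chromosome 17, 34856374 to 34862518) are on the same chromosome but far apart. Cfp is at 20925454 to 20931555 of chromosome X, C3ar1 at 122847138 to 122856161 of chromosome 6, C5ar1 at 16246743 to 16259540 of chromosome 7 and Serping1 at 84765387 to 84775444 of chromosome 2. All 9 genes are protein coding and lie on the minus strand in GENCODE M21.

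The bases upstream of 2 start sites are shown because C3 gave the highest member level of the series and C1qb was the most abundant C1q chain. RefSeq sequences of 6 members were matched, and C1qa, Cfb and Serping1 were not. Each window holds the 250 bases before the start on the minus strand of GRCm38.p6, at chr17:57228137-57228386 for C3 and at chr4:136886201-136886450 for C1qb. Capitals mark the letters that match the searched C/EBP motif, TTGCNNAA.
C3: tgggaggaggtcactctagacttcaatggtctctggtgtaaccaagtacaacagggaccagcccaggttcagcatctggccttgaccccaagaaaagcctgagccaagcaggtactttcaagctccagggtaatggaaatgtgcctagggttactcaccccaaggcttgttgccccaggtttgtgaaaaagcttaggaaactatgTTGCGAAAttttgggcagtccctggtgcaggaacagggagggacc
C1qb: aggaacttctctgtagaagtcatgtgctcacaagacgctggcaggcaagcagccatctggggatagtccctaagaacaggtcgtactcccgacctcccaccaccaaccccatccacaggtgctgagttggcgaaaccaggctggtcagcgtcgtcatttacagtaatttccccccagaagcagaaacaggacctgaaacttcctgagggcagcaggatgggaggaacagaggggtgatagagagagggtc

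The C/EBP motif, named for a family of factors active in myeloid cells, began 45 and ended 38 bases before the start of C3, as TTGCGAAA. It was found in 9.56% of 32851 mouse promoter windows of this length. The 6 windows were searched on both strands for 8 motifs. The others were a STAT site (GAS, TTCNNNGAA, 7.02% of windows), its longer form bound by Stat6 (TTC and GAA with 4 bases between them, 5.85%), an interferon response core (GAAA repeated after 2 bases, 2.98%), a kappaB site (GGG and TTCC with 3 bases between them, 4.65%), the E-box of Myc (CACGTG, 6.02%), a PU.1 site (GAGGAAG, 10.6%) and an E2F site (TTTNNCGC, 4.28%). Besides C3, C1qc held a match to PU.1 (CTTCCTC, 194 to 188 bases before the start) and C3ar1 a match to kappaB (GGAAAGGCCC, 14 to 5 bases before the start). None of these letters was found in the windows of C1qb, Cfp and C5ar1, which says nothing about binding of a factor.

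Counted reads per library ranged from 19714994 to 29880494 in the polarization experiment, where summing the technical replicates gave 39577911 to 59443987, and from 13421854 to 19704195 in the reprogramming experiment. All 8 macrophage markers reached 1 CPM (read counts scaled to library size with TMM factors) in every condition, with Adgre1, Csf1r and Cd68 among them. The summed level of the macrophage markers was lower in M1-like cells of the second experiment (6955 to 8096 CPM untransfected) than in M2-like cells (16030 to 18410 CPM). Of 9 mesothelial and fibroblast markers, 6 or 7 reached 1 CPM in M0 and M2-like cells of the second experiment and 4 in its M1-like cells. Their sum was 9.24 to 32.97 CPM over the 3 states at 24 h. It was 20.7 to 89.1 CPM in M1-like and M1-like mock cells and 106 to 427 CPM in the other conditions of the second experiment. In bulk RNA, fewer cells of a type and less RNA per cell cannot be told apart. The targets lay below the mock level: the single pools left E2f1 at 16.2% to 22.2%, Myc at 26.9% to 41.1%, Pparg at 26.6% or less and Stat6 at 23.1% to 34.5% of the mean of M2-like mock cells. The negative pool held E2f1 at 64.4% to 81.9% and the other 3 genes at 85.3% or more. In iM1 the 4 genes stood at 44.3% to 47.0%, 33.7% to 39.6%, 28.2% to 32.8% and 49.5% to 58.5%.

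The changes of the complement genes at 24 h are set beside the share of all genes that changed. A member is called higher or lower where edgeR's quasi-likelihood test, adjusted over all genes tested, gave a p under 0.05, and all 9 members passed the expression filter in both experiments. The comparison of M1-like with M0 macrophages at 24 h gave 5 higher and 3 lower members, where 72.9% of the 16110 genes tested were called. In M2-like against M0 macrophages 2 members were higher and 1 was lower (27.9% of genes called), and in M1-like against M2-like macrophages 4 were higher and 2 were lower (72.6%). The share of members called was thus close to that of all genes in each of these comparisons, and the sizes of the changes are given gene by gene.

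**Figure D1:**
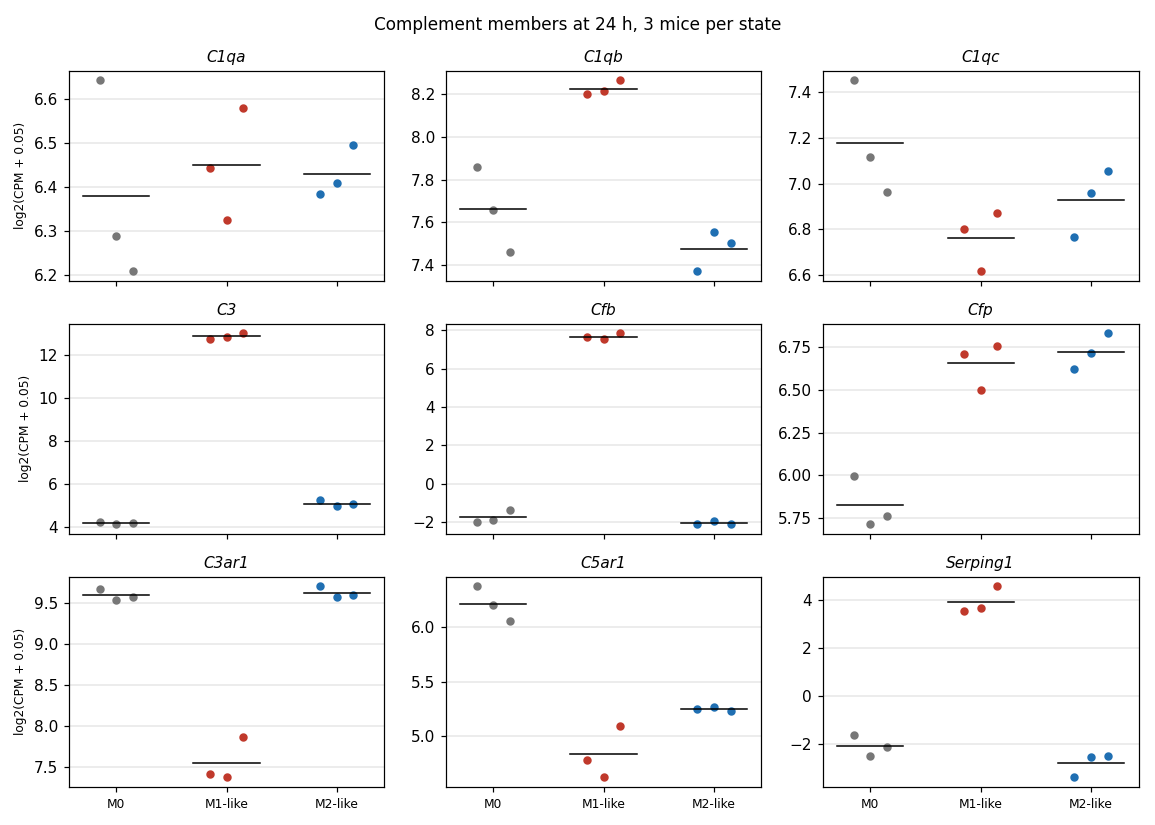
Level of each complement gene at 24 h as log2(CPM + 0.05) on the y axis, for M0, M1-like and M2-like macrophages on the x axis. Each point is 1 of 3 mice (technical replicates summed) and the line is the mean of the log2 values. C3, Cfb and Serping1 stand far higher in M1-like cells than in the other states, while C3ar1 and C5ar1 stand lower.

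C3 gave the largest level of the members. At 24 h it stood at 18.4, 17.2 and 17.7 CPM in M0 macrophages of mice 1, 2 and 3, at 6857, 7293 and 8189 CPM in M1-like and at 37.2, 31.1 and 32.8 CPM in M2-like macrophages. The 3 states did not overlap in any mouse. C3 rose 420-fold in M1-like against M0 macrophages (log2 fold change 8.71, SE 0.11, adjusted p = 1.12e-13) and 1.90-fold in M2-like against M0 macrophages (log2 fold change 0.92, SE 0.08, adjusted p = 1.55e-05). Per kilobase of exon, C3 reached 1448 CPM in M1-like macrophages, compared with 275 CPM for C1qb, the next member in that state.

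Cfb, the serine protease of the alternative pathway convertase, was almost silent without LPS and IFNγ. In M0 macrophages of the 3 mice 10, 12 and 18 reads were counted, and in M2-like macrophages 8, 12 and 10 reads, each under 0.4 CPM. M1-like macrophages held 199, 186 and 229 CPM. The rise over M0 was 800-fold (log2 fold change 9.64, SE 0.14, adjusted p = 1.58e-13), and its fitted size rests on few M0 reads. In M1-like cells C3 exceeded Cfb 19.0-fold to 21.6-fold over the 3 mice, both in CPM per kilobase of exon.

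Serping1 also rose from a very low level. Its 14, 7 and 10 reads in M0 and 2, 7 and 7 reads in M2-like macrophages compare with 11.6, 12.6 and 23.9 CPM in M1-like macrophages. The rise over M0 was 80.9-fold (log2 fold change 6.34, SE 0.36, adjusted p = 1.09e-08). Serping1 passed the expression filter at 24 h only through its M1-like samples, and the fitted size of the rise rests on few M0 reads. The M1-like sample of mouse 3 stood apart at the highest level, and without it the log2 fold change was 5.93 and still called.

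Cfp, which stabilizes the convertase, rose in both polarized states at 24 h. It stood at 63.9, 52.4 and 54.2 CPM in M0, at 105, 90.6 and 108 CPM in M1-like and at 98.4, 105 and 114 CPM in M2-like macrophages, so that M0 lay below both. The log2 fold changes were 0.83 (SE 0.09, adjusted p = 4.68e-06) in M1-like and 0.90 (SE 0.09, adjusted p = 3.14e-05) in M2-like macrophages. M1-like and M2-like macrophages overlapped.

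The receptors fell. C3ar1, the receptor of C3a, stood at 819, 748 and 763 CPM in M0, at 171, 166 and 234 CPM in M1-like and at 836, 766 and 776 CPM in M2-like macrophages. It fell by 2.03 on the log2 scale in M1-like against M0 macrophages (SE 0.12, adjusted p = 1.15e-08), and M0 and M2-like macrophages overlapped. C5ar1, the receptor of C5a, stood at 82.7, 73.3 and 66.3 CPM in M0, at 27.4, 24.6 and 34.2 CPM in M1-like and at 37.9, 38.5 and 37.4 CPM in M2-like macrophages. It fell by 1.36 on the log2 scale in M1-like (SE 0.11, adjusted p = 3.09e-07) and by 0.97 in M2-like macrophages (SE 0.11, adjusted p = 7.26e-05).

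The C1q chains did not move together at 24 h, although their protein is assembled from all 3. C1qb stood at 232, 202 and 176 CPM in M0 and at 294, 297 and 308 CPM in M1-like macrophages, a rise of 0.56 on the log2 scale (SE 0.09, adjusted p = 0.000147). C1qc stood at 175, 139 and 125 CPM in M0 and at 111, 98.1 and 117 CPM in M1-like macrophages, a fall of 0.43 on the log2 scale (SE 0.12, adjusted p = 0.00657). This fall rested on mouse 1 of M0: without that sample the log2 fold change was -0.25 (adjusted p = 0.0529). C1qa overlapped between M0 (99.8, 78.0 and 73.9 CPM) and M1-like macrophages (87.0, 80.1 and 95.5 CPM), with a log2 fold change of 0.06 (SE 0.10). No C1q chain passed the test in M2-like against M0 macrophages, where the log2 fold changes were 0.04, -0.19 and -0.26 for C1qa, C1qb and C1qc.

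In the reprogramming experiment every member was called between M1-like and M0 macrophages, 3 of them higher and 6 lower (57.7% of the 14172 genes tested were called). Between M1-like and M2-like macrophages 3 were higher and 6 lower (61.5%), and between M2-like and M0 macrophages 5 were higher and none lower (19.9%), while DESeq2 also called Cfb, as lower (-2.50, adjusted p = 0.0395). Among mock samples, M1-like against M2-like macrophages gave 2 higher and 6 lower members (60.7%), and M2-like against M0 macrophages gave 1 higher member (3.83%). The 2 experiments differ in read length and layout, and the harvest time of the untransfected cells is not given for this experiment by name. Levels are therefore not compared between them.

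**Figure D2:**
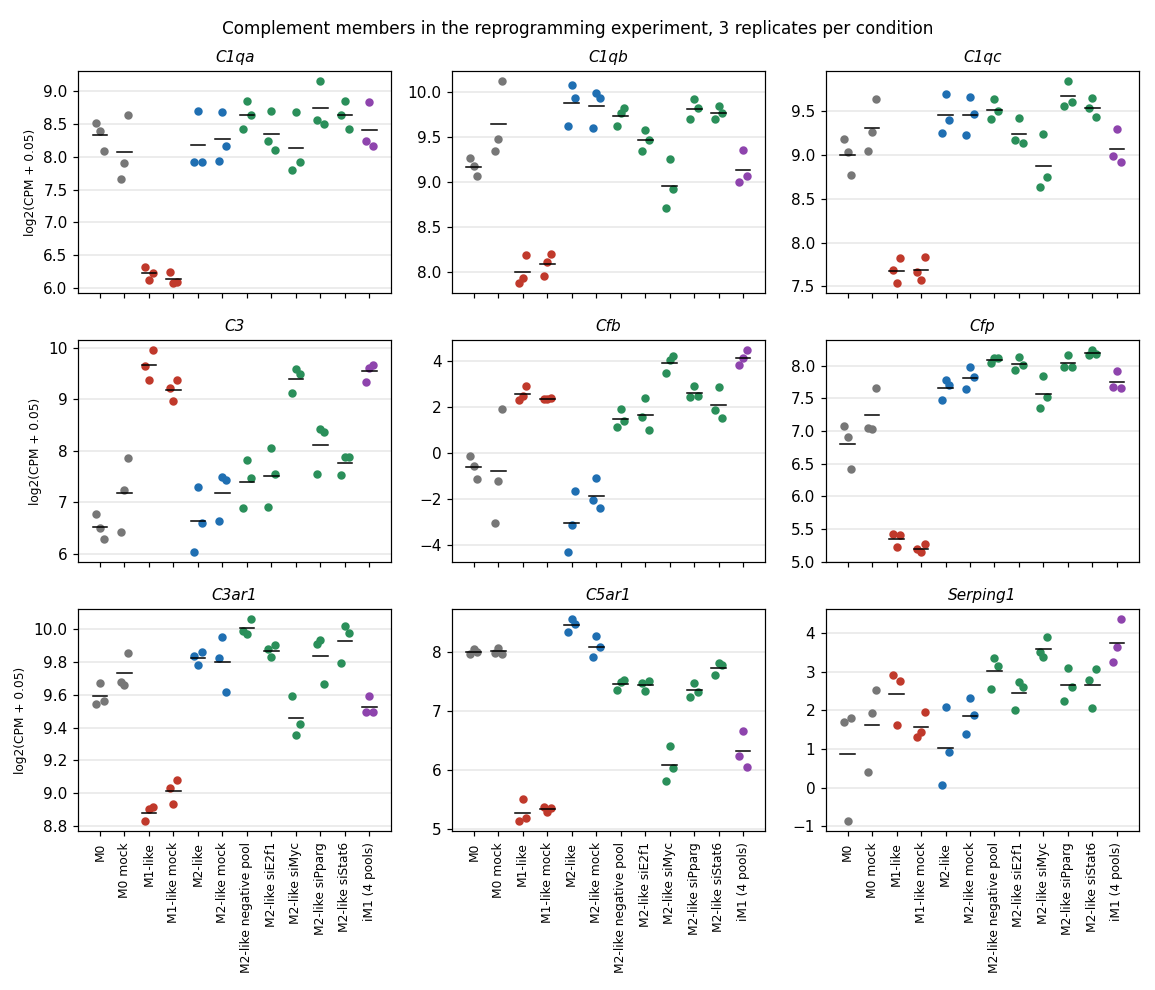
Level of each complement gene in the 12 conditions of the reprogramming experiment as log2(CPM + 0.05) on the y axis. Each point is 1 of 3 replicates, the line is the mean of the log2 values, and colours separate M0 (grey), M1-like (red), M2-like without siRNA (blue), siRNA pools (green) and iM1 (purple). C1q chains, Cfp and receptors were lowest in M1-like cells, while C3 in iM1 and in siMyc cells (the Myc pool) lay within 559 to 816 CPM, in the range of the M1-like cells.

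All 3 C1q chains were lowest in M1-like macrophages of this experiment. C1qa stood at 365, 335 and 272 CPM in the 3 replicates of M0, at 79.5, 69.9 and 75.1 CPM in M1-like and at 242, 414 and 242 CPM in M2-like macrophages. C1qb stood at 615, 577 and 535 CPM in M0, at 234, 245 and 291 CPM in M1-like and at 791, 1085 and 980 CPM in M2-like macrophages. C1qc stood at 581, 526 and 438 CPM in M0, at 205, 185 and 226 CPM in M1-like and at 611, 835 and 678 CPM in M2-like macrophages. The M1-like libraries, mock included, lay below every other library for each chain. The log2 fold changes against M2-like macrophages were -2.001 (SE 0.26, adjusted p = 5.86e-08) for C1qa, -1.89 (SE 0.15, adjusted p = 2.41e-12) for C1qb and -1.78 (SE 0.16, adjusted p = 1.2e-11) for C1qc, falls of 3.44-fold to 4.004-fold. In M2-like against M0 macrophages C1qb rose by 0.73 (SE 0.15, adjusted p = 0.000622) and C1qc by 0.46 (SE 0.15, adjusted p = 0.0295), while C1qa gave -0.11. The call of C1qc was lost without replicate 2 or 3 of M0 or replicate 2 of M2-like macrophages, at 0.32 to 0.47.

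C3 and Cfb were again highest in M1-like cells among the untransfected states. C3 stood at 109, 90.5 and 77.5 CPM in M0, at 801, 663 and 994 CPM in M1-like and at 65.0, 156 and 97.1 CPM in M2-like macrophages. It rose 8.87-fold over M0 (log2 fold change 3.15, SE 0.33, adjusted p = 8.7e-10) and 7.70-fold over M2-like macrophages (log2 fold change 2.95, SE 0.33, adjusted p = 2.35e-09), while M0 and M2-like cells overlapped. Cfb stood at 4.95, 5.62 and 7.57 CPM in M1-like cells, from 81, 84 and 120 reads. The other states held 12, 10 and 6 reads (M0) and 0, 1 and 4 reads (M2-like), so the fitted log2 fold changes of 3.24 over M0 (SE 0.58, adjusted p = 1.69e-05) and 5.66 over M2-like macrophages (SE 0.80, adjusted p = 3.07e-07) rest on few reads.

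Cfp and the receptors were lower in M1-like cells. Cfp stood at 135, 120 and 85.3 CPM in M0, at 42.8, 37.5 and 42.3 CPM in M1-like and at 179, 221 and 209 CPM in M2-like macrophages, with no overlap between the states. It fell by 1.47 against M0 (SE 0.15, adjusted p = 3.12e-10) and by 2.31 against M2-like macrophages (SE 0.15, adjusted p = 6.81e-15), and it rose by 0.84 in M2-like against M0 macrophages (SE 0.14, adjusted p = 4.17e-05), all on the log2 scale. C5ar1 stood at 249.5, 267 and 257 CPM in M0, at 35.1, 45.7 and 36.7 CPM in M1-like and at 324, 379 and 357 CPM in M2-like macrophages. Its fall against M2-like macrophages was 9.02-fold (log2 fold change -3.17, SE 0.13, adjusted p = 1.42e-19), and M2-like cells exceeded M0 by 0.45 (SE 0.12, adjusted p = 0.00723). C3ar1 moved less, with 747, 817 and 756 CPM in M0, 454, 478 and 482 CPM in M1-like and 913, 879 and 929 CPM in M2-like macrophages. It fell by 0.71 against M0 (SE 0.08, adjusted p = 4.46e-09) and by 0.94 against M2-like macrophages (SE 0.08, adjusted p = 7.84e-12), and its rise of 0.23 in M2-like against M0 macrophages (adjusted p = 0.0405) was lost when any replicate but the second of M0 was left out, at 0.21 to 0.25.

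Serping1 stood at 3.22, 0.496 and 3.41 CPM in M0, at 7.45, 3.01 and 6.75 CPM in M1-like and at 1.002, 4.19 and 1.85 CPM in M2-like macrophages, so that the groups overlapped. The log2 fold change of 1.31 over M0 (SE 0.49, adjusted p = 0.0229) was lost without replicate 2 of M0 (0.78, adjusted p = 0.174), replicate 1 of M1-like (1.08) or replicate 3 of M1-like cells (1.18). The rise of 1.27 over M2-like macrophages (SE 0.49, adjusted p = 0.0237) was lost in 4 of 6 such fits, at 0.93 to 1.14. The summed mesothelial and fibroblast markers stood at 230, 118 and 214 CPM in the same M0 samples, at 89.1, 30.5 and 81.5 CPM in M1-like and at 106, 377 and 186 CPM in M2-like samples. Within each state the replicate that was lowest for these markers was also lowest for Serping1, and their part in the level of Serping1 was not tested. C3 was also lowest in the same replicate as these markers in M1-like and in M2-like cells. In M0 cells C3 was lowest in replicate 3 and the markers in replicate 2. The part of these markers in the level of C3 was not tested either.

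The contrast of M1-like with M2-like cells was called in the same direction in mock samples for 8 members. In M1-like mock against M2-like mock macrophages C3 was higher (592, 500 and 663 against 98.6, 181 and 172 CPM, log2 fold change 1.96, SE 0.31, adjusted p = 2.67e-06), and so was Cfb (93, 103 and 91 reads against 3, 6 and 2 reads). The C1q chains, Cfp, C3ar1 and C5ar1 were lower, by 0.79 for C3ar1 to 2.76 for C5ar1 on the log2 scale. Serping1 overlapped, with 2.45, 2.65 and 3.83 against 2.56, 4.98 and 3.62 CPM (log2 fold change -0.32). Between M2-like mock and M0 mock macrophages edgeR called Cfp alone, at 0.55 (SE 0.14, adjusted p = 0.0182), with overlapping groups. C1qb, C1qc, C3ar1 and C5ar1 gave 0.16, 0.13, 0.07 and 0.08 there. DESeq2 called Cfb as well, as lower (-2.49, adjusted p = 0.0287). The call of Cfp was lost without replicate 1 or 2 of M0 mock or replicate 2 of M2-like mock, at 0.44 to 0.47.

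Between mock and untransfected cells the share of members called was close to that of all genes. The harvest time of the untransfected cells is not given by experiment, so reagent and culture time cannot be told apart here. In M0 macrophages, mock against untransfected samples gave 2 higher members (20.4% of genes called), C1qb at 0.52 (SE 0.15, adjusted p = 0.0115) and Cfp at 0.45 (SE 0.14, adjusted p = 0.0202). Both rested on replicate 3 of M0 mock, which stood apart with 1116 CPM of C1qb against 648 and 712 CPM, 232 CPM of C3 against 85.8 and 150 CPM, and 58 reads of Cfb against 1 and 7 reads. Without that library the log2 fold changes were 0.24 (adjusted p = 0.233) and 0.21 (adjusted p = 0.285), and Cfb turned from 1.12 to -1.35, neither called. Both calls were also lost without replicate 3 of M0, at 0.47 for C1qb and 0.28 for Cfp, and when only the compared groups were fitted. No member was called in M1-like cells (0.0% of genes called, with 1 member, Serping1, at an unadjusted p under 0.05) or in M2-like cells (1.77% of genes, with 1 member, C5ar1, at an unadjusted p under 0.05), and DESeq2 called none in either. C5ar1 stood at 324, 379 and 357 CPM in untransfected and at 243, 309 and 271 CPM in mock M2-like cells (log2 fold change -0.36, adjusted p = 0.175), and it passed the test with the replicate number as a block (adjusted p = 0.0261). The contrast of M1-like against M2-like cells was not called as different between mock and untransfected samples for any member (1.13% of genes called), while 3 members (C3, C5ar1 and Serping1) had an unadjusted p under 0.05 and DESeq2 called none.

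The negative siRNA pool alone changed 2 members of M2-like macrophages, where 11.7% of genes were called against M2-like mock. Cfb stood at 36, 56 and 46 reads (2.17, 3.74 and 2.63 CPM) with the negative pool and at 3, 6 and 2 reads (0.192, 0.421 and 0.139 CPM) in mock cells. The groups did not overlap, and the fitted log2 fold change was 3.46 (SE 0.77, adjusted p = 0.00237). C5ar1 stood at 164, 180 and 184 CPM with the negative pool and at 243, 309 and 271 CPM in mock cells, a fall of 0.64 on the log2 scale (SE 0.12, adjusted p = 0.000412). Serping1 stood at 5.78, 10.1 and 8.87 CPM against 2.56, 4.98 and 3.62 CPM (log2 fold change 1.15, adjusted p = 0.0903), without overlap. The changes of the targeting pools are therefore given against both references, which share the knockdown samples.

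Against M2-like mock macrophages, iM1 gave 3 higher and 4 lower members (37.1% of genes called), the Myc pool 3 higher and 4 lower (38.7%), the Pparg pool 2 higher and 1 lower (17.2%), the E2f1 pool 1 higher and 1 lower (11.6%) and the Stat6 pool 1 higher (11.5%). Against the negative pool, iM1 gave 2 higher and 4 lower members (26.5%) and the Myc pool 2 higher and 5 lower (29.6%). The E2f1 pool (0.91%), the Pparg pool (5.74%) and the Stat6 pool (1.51%) gave none. For these 3 pools, 0, 3 (C3, C3ar1 and Cfb) and 1 (C5ar1) members had an unadjusted p under 0.05, and DESeq2 called none.

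**Figure D3:**
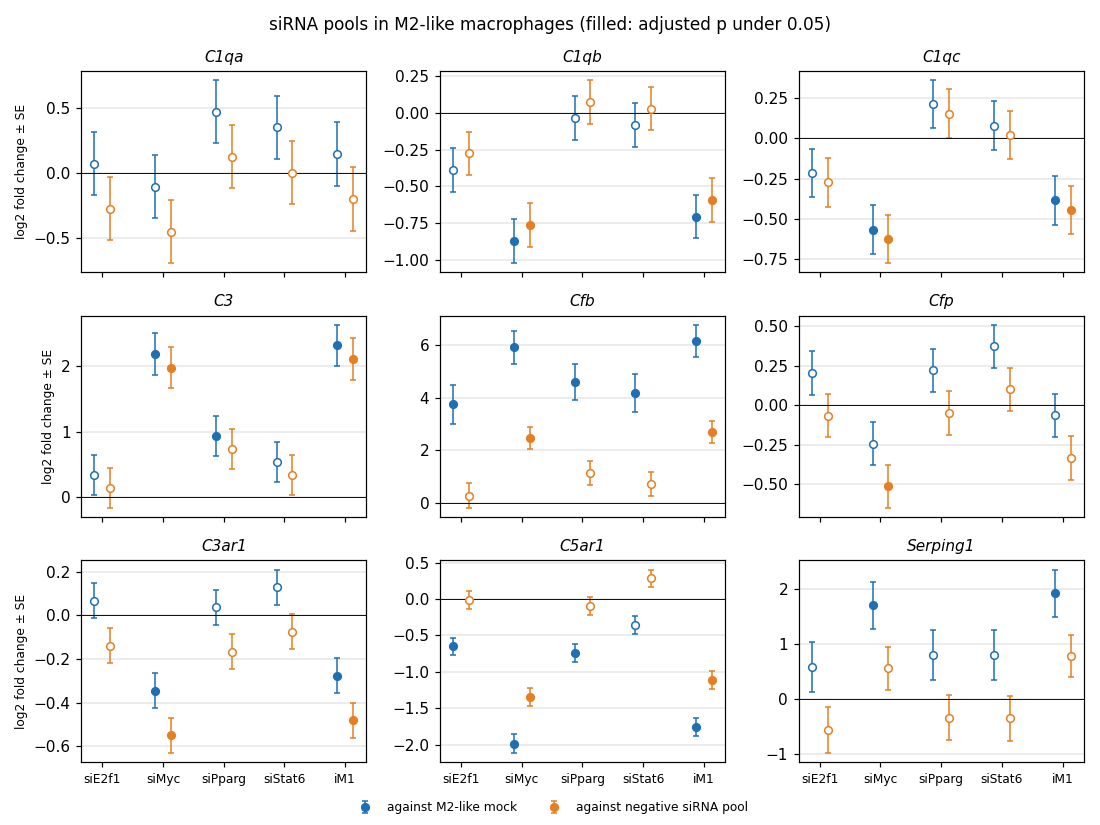
Log2 fold change (y axis, bars show the SE) of each complement gene under the 5 siRNA treatments of M2-like macrophages (x axis), against M2-like mock (blue) and against the negative siRNA pool (orange), 3 replicates per group. Filled points passed the test. Against the negative pool only the Myc pool and iM1 have filled points, and Cfb against mock is positive under all 5 treatments.

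C3 rose under the Myc pool and in iM1. Its level was 559, 771 and 716 CPM with the Myc pool and 648, 776 and 816 CPM in iM1, compared with 119, 225 and 177 CPM with the negative pool and 98.6, 181 and 172 CPM in mock cells. Both groups lay above all libraries of the references. Against the negative pool the log2 fold changes were 1.98 (SE 0.31, adjusted p = 1.27e-05) for the Myc pool and 2.11 (SE 0.31, adjusted p = 6.2e-06) for iM1. The Pparg pool gave 187, 345 and 329 CPM, called against mock (log2 fold change 0.93, SE 0.31, adjusted p = 0.0317) but not against the negative pool (0.73, adjusted p = 0.167). The call against mock was lost without replicate 2 or 3 of the Pparg pool or replicate 1 of mock, at 0.70 to 0.82. E2f1 and Stat6 pools gave 120 to 266 and 183 to 236 CPM. In mock cells, with each siRNA pool and in iM1, replicate 1 was lowest both for C3 and for the summed mesothelial and fibroblast markers. The part of these markers in the level of C3 was not tested.

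Cfb followed the same order at lower levels. It stood at 11.3, 16.6 and 18.8 CPM with the Myc pool and at 14.4, 17.7 and 22.6 CPM in iM1, and the log2 fold changes against the negative pool were 2.46 (SE 0.42, adjusted p = 3.44e-05) and 2.69 (SE 0.42, adjusted p = 1.09e-05). Both treatments lay above every other library of the experiment. The E2f1, Pparg and Stat6 pools gave 1.97 to 7.63 CPM, all above the 0.139 to 0.421 CPM (2 to 6 reads) of mock cells. Under these pools Cfb was called against mock (log2 fold changes 3.75, 4.61 and 4.17) and not against the negative pool (0.28, 1.14 and 0.71). With the Pparg pool Cfb (5.34 to 7.63 CPM) lay above the negative pool (2.17 to 3.74 CPM) without overlap. That difference passed the test with only the compared groups (adjusted p = 0.00752) and without the filter (3.63e-05).

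C5ar1 showed the largest fall. It stood at 56.2, 85.3 and 66.0 CPM with the Myc pool and at 75.8, 101 and 66.2 CPM in iM1, below the 164 to 184 CPM of the negative pool and the 243 to 309 CPM of mock cells. The log2 fold changes against the negative pool were -1.35 (SE 0.12, adjusted p = 1.42e-09) and -1.11 (SE 0.12, adjusted p = 5.07e-08). Against mock they were -1.99 and -1.76. The E2f1 pool (163 to 182 CPM) and the Pparg pool (152 to 179 CPM) fell against mock by 0.65 and 0.74, near the fall of the negative pool itself. With the Stat6 pool C5ar1 stood at 197, 225 and 221 CPM (log2 fold change -0.36 against mock, adjusted p = 0.0525). This fall against mock passed the test with the replicate block (adjusted p = 0.00979), with DESeq2 (0.0276) and with RLE size factors (0.0419). It also passed without the filter (0.00159), with only the compared groups (0.0287) and without replicate 1 of mock (0.0354). Against the negative pool the Stat6 pool gave 0.29 (adjusted p = 0.303), with every library above those of the negative pool.

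C3ar1 also fell, but less. It stood at 772, 656 and 685 CPM with the Myc pool and at 722, 771 and 722 CPM in iM1, against 1016, 1006 and 1070 CPM with the negative pool. The log2 fold changes against the negative pool were -0.55 (SE 0.08, adjusted p = 3.99e-06) and -0.48 (SE 0.08, adjusted p = 3.13e-05), and against mock (786 to 990 CPM) they were -0.34 and -0.28. The call of iM1 against mock was lost without replicate 2 of mock (-0.20, adjusted p = 0.0776). C3ar1 in the E2f1, Pparg and Stat6 pools stood at 812 to 1037 CPM.

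Of the C1q chains, C1qb and C1qc fell under the Myc pool and in iM1. C1qb stood at 418, 611 and 483 CPM with the Myc pool and at 513, 652 and 534 CPM in iM1, below the 790 to 905 CPM of the negative pool, with log2 fold changes of -0.76 (SE 0.15, adjusted p = 0.000219) and -0.59 (SE 0.15, adjusted p = 0.00317). C1qc stood at 398, 608 and 429 CPM and at 507, 632 and 487 CPM, below the 684 to 798 CPM of the negative pool, with log2 fold changes of -0.62 (SE 0.15, adjusted p = 0.00203) and -0.44 (SE 0.15, adjusted p = 0.0281). The call of C1qc in iM1 was lost in 4 of 6 fits that left out a library, at -0.37 to -0.45, and likewise against mock (-0.38, adjusted p = 0.0437), at -0.27 to -0.38. C1qa overlapped with the negative pool (344 to 461 CPM) in both, at 224, 412 and 242 CPM with the Myc pool and 301, 455 and 288 CPM in iM1. Its log2 fold changes were -0.45 (SE 0.25, adjusted p = 0.168) and -0.20 (SE 0.25). C1qb under the E2f1 pool gave -0.39 against mock (adjusted p = 0.092), and passed the test with the replicate block (adjusted p = 0.0251).

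Cfp and Serping1 depended on the reference. Cfp stood at 163, 228 and 184 CPM with the Myc pool, a fall of 0.51 on the log2 scale against the negative pool (264 to 279 CPM, SE 0.14, adjusted p = 0.00486), and gave -0.24 against mock (201 to 252 CPM, adjusted p = 0.167). In iM1 Cfp stood at 205, 243 and 202 CPM, at -0.33 against the negative pool (adjusted p = 0.0707), which passed the test with the replicate block (adjusted p = 0.0465). With the Stat6 pool Cfp stood at 287, 303 and 290 CPM, at 0.37 against mock (adjusted p = 0.0787), and also passed with the block (adjusted p = 0.0472). Serping1 stood at 11.3, 10.3 and 14.8 CPM with the Myc pool and at 9.41, 12.4 and 20.5 CPM in iM1. It rose by 1.71 (SE 0.43, adjusted p = 0.00186) and 1.93 (SE 0.43, adjusted p = 0.000551) on the log2 scale against mock, and gave 0.56 (adjusted p = 0.292) and 0.78 (adjusted p = 0.14) against the negative pool. The mesothelial and fibroblast markers summed to 218 to 308 CPM with the Myc pool, 221 to 362 CPM in iM1, 261 to 377 CPM with the negative pool and 162 to 267 CPM in mock cells. With the Myc pool replicate 1 was lowest for these markers and replicate 2 for Serping1. The Stat6 pool gave the same split (Serping1 at 4.11 CPM in replicate 2). In mock cells, in iM1 and with the other pools replicate 1 was lowest for both. The part of these markers in these values of Serping1 was not tested.

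No difference between the combined pools and the Myc pool was detected in these genes. Between iM1 and the Myc pool no member was called (0.0494% of genes), none had an unadjusted p under 0.05, DESeq2 called none, and the log2 fold changes lay between 0.07 and 0.25. A p that misses the threshold does not show equal levels. Against the E2f1 pool 3 members were higher and 2 lower in iM1 (21.6% of genes), against the Pparg pool 3 were higher and 4 lower (18.0%), and against the Stat6 pool 3 were higher and 5 lower (22.2%). Against the E2f1 pool C1qb gave -0.32 (adjusted p = 0.13) and passed with the replicate block (adjusted p = 0.0437). C3 exceeded the E2f1, Pparg and Stat6 pools by 1.97, 1.38 and 1.78 on the log2 scale, Cfb by 2.40, 1.54 and 1.98, and C5ar1 was lower by 1.10, 1.02 and 1.40. C3ar1 was lower in all 3 comparisons as well, by 0.34, 0.31 and 0.41. DESeq2 did not call Cfb (adjusted p = 0.0607) and Serping1 (adjusted p = 0.119) against the Pparg pool or Serping1 against the Stat6 pool (adjusted p = 0.114). With 1 library left out, Serping1 lost its call against each of the 3 pools, at 0.76 at the lowest without replicate 3 of iM1 against the Pparg and Stat6 pools and at 0.98 against the E2f1 pool. The C1qc and Cfp calls against the Stat6 pool were also lost in such fits, at -0.39 to -0.47 and -0.39 to -0.41. The Myc pool was not tested against the other single pools.

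Compared with M1-like mock macrophages, 8 members were higher in iM1 and none was lower (52.9% of genes called). C3 was the exception, at 648 to 816 CPM in iM1 and 500 to 663 CPM in M1-like mock cells (log2 fold change 0.35, adjusted p = 0.337). It passed the test when only the compared groups were fitted (adjusted p = 0.0144). Cfb exceeded the M1-like mock level 3.55-fold (log2 fold change 1.83, SE 0.38, adjusted p = 0.000159). Cfp (5.91-fold) and C1qa (4.97-fold) showed the widest distance. C5ar1 stood 2.005-fold, C1qb 2.08-fold, C1qc 2.62-fold, C3ar1 1.43-fold and Serping1 4.76-fold higher. The C1q chains, Cfp, C3ar1 and C5ar1 were already higher in M2-like mock than in M1-like mock cells. Serping1 stood at 5.78 to 10.1 CPM with the negative pool and at 2.45 to 3.83 CPM in M1-like mock cells, and no M1-like cells received siRNA. Mesothelial and fibroblast markers summed to 20.7 to 40.0 CPM in M1-like mock cells and 221 to 362 CPM in iM1, and their part was not tested. 

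The proportions of the C1q chains varied by condition. Expressed in CPM per kilobase of exon, C1qb exceeded C1qa and C1qc in every library. At 24 h the ratio of C1qc to C1qb was 0.387 to 0.425 in M0, 0.370 to 0.413 in M2-like and 0.186 to 0.214 in M1-like macrophages, and the ratio of C1qa to C1qb was 0.404 to 0.449, 0.473 to 0.527 and 0.282 to 0.325. Both ratios were thus lowest in M1-like cells without overlap. C1qa to C1qb in the reprogramming experiment was 0.532 to 0.622 in M0, 0.270 to 0.355 in M1-like and 0.258 to 0.400 in M2-like macrophages. It was 0.326 to 0.374 in M0 mock, 0.307 to 0.423 in M2-like mock and 0.455 to 0.552 with the negative pool. The range was 0.564 to 0.729 in iM1 and 0.523 to 0.705 with the Myc pool, and both overlapped M0. C1qc to C1qb was 0.462 to 0.533 in M0, 0.426 to 0.494 in M1-like and 0.390 to 0.436 in M2-like macrophages, so that M1-like cells overlapped both and were not lowest. It was 0.409 to 0.451 in M2-like mock, 0.454 to 0.515 with the negative pool, 0.500 to 0.560 with the Myc pool and 0.513 to 0.556 in iM1. These ratios are given as a description, with no test.

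**Figure D4:**
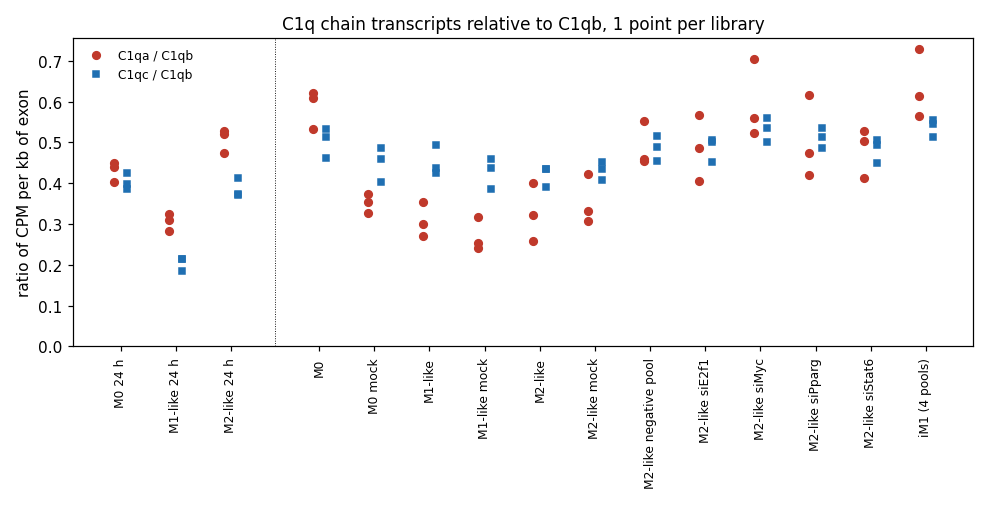
Ratio of C1qa (circles) and of C1qc (squares) to C1qb on the y axis, from CPM per kilobase of exon, for the 15 conditions on the x axis with 1 point per library (technical replicates summed at 24 h). The M1-like cells at 24 h have the lowest C1qc to C1qb ratios, 0.186 to 0.214. C1qa to C1qb reaches 0.729 in iM1, whose range overlaps M0 and the Myc, Pparg and E2f1 pools.

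Across the mean log2 CPM of the 12 conditions of the reprogramming experiment, C3 ran with Cfb (Pearson r = 0.85) and against C5ar1 (r = -0.94), and C1qa and C1qc gave r = 0.96. These points share libraries and the contrast of M1-like with other cells, and genes are not independent replicates. Among 1840 candidate genes with a range of at least 1 on the log2 scale, the genes most like C5ar1 over the 12 conditions were Slc9a9 (r = 0.998), a sodium/proton exchanger gene, and Itgb5 (r = 0.992), an integrin chain gene. For C1qb they were Fam213a (r = 0.984) and Mfge8 (r = 0.981), which codes for a bridging protein in the uptake of dying cells. For C1qc they were Anxa1 (r = 0.985), which codes for annexin A1, and Igfbp4 (r = 0.984), and for C1qa they were Cped1 (r = 0.985) and Pcdh7 (r = 0.984). C3 was most like Sh2b2 (r = 0.979) and Chchd10 (r = 0.979), Cfb most like Il21r (r = 0.971), the interleukin 21 receptor gene, and Serpinb2 (r = 0.962), and Cfp most like Dnmt3a (r = 0.987) and Mmp27 (r = 0.986). C3ar1 was most like Cnrip1 (r = 0.985) and Socs6 (r = 0.981). For Serping1 the values were lowest, with Spdl1 (r = 0.958) and the receptor kinase gene Axl (r = 0.958).

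Of 45 other complement genes, 25 passed the expression filter at 24 h and 22 in the reprogramming experiment. In M1-like against M0 macrophages at 24 h 8 were higher and 12 lower (72.9% of all genes called). The median log2 fold change of those that passed the filter was -0.63, beside -0.04 over all genes tested. Among the genes with a mean log2 CPM of at least 3, the proteases that act next to C1q changed most. C1s1 rose by 7.20 (SE 0.19, adjusted p = 7.96e-12), C1rb by 5.89 (SE 0.10, adjusted p = 3.16e-13) and C1ra by 5.81 (SE 0.07, adjusted p = 8.2e-14) on the log2 scale. Below that level, C1s2 rose by 7.20 as well. C1ra rose from 2.93 ± 0.115 CPM (SD, n = 3) in M0 to 164 ± 1.30 CPM in M1-like macrophages. C1ra and C1rb are close copies, so reads shared between them are uncertain. In M2-like against M0 macrophages 3 were higher and 3 lower (27.9% of all genes called). Among the genes with a mean log2 CPM of at least 3, the largest changes were those of Itgax, a chain of complement receptor 4 (0.95), Cd93 (-0.68) and C1qbp (0.39). Below that level, Cr2 (-2.80) and C8g (-0.49) were also called lower.

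In the reprogramming experiment 5 of these genes were higher and 11 lower in M1-like against M0 macrophages (57.7% of all genes called). In M1-like against M2-like macrophages 6 were higher and 11 lower (61.5%). Itgax fell by 5.30 against M2-like macrophages (SE 0.19, adjusted p = 4.12e-21), Vsig4, the complement receptor of the immunoglobulin family, fell by 5.16 (SE 0.39, adjusted p = 4.8e-13), and C1ra rose by 4.05 (SE 0.24, adjusted p = 1.25e-15). In iM1 and under the Myc pool 6 were higher and 10 lower against mock (37.1% and 38.7% of all genes called). Against the negative pool 4 were higher and 9 lower in both (26.5% and 29.6%). C1ra rose against mock by 1.68 and 1.70, and C5ar2, the other receptor of C5a, fell by 1.51 and 1.57 with the Myc pool and in iM1. Against the negative pool Vsig4 fell by 1.19 and Fcna, which codes for a ficolin, by 0.98 with the Myc pool, and in iM1 C5ar2 fell by 0.99 and C1ra rose by 0.96. Between iM1 and the Myc pool none of the 22 was called (0.0494% of all genes).

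**Figure D5:**
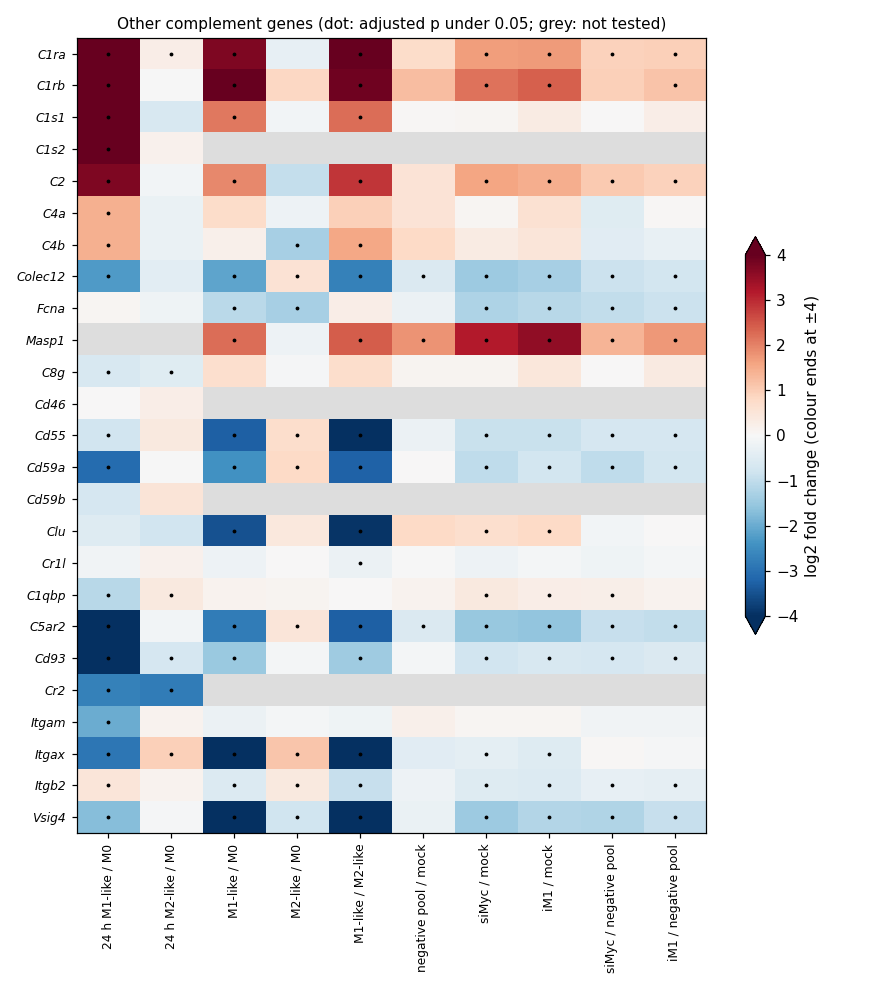
Log2 fold change (colour, ending at ±4) of other complement genes that passed the expression filter (rows) in 10 comparisons (columns), each named with its reference after the slash. A dot marks an adjusted p under 0.05 and grey marks genes not tested. C1ra and C5ar2 carry opposite colours in the comparisons of M1-like cells with M0 and of the Myc pool and iM1 with mock.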

How the data were processed

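RNA sequencing libraries of the polarization experiment (18, single-end, 50 bases) and of the reprogramming experiment (36, paired-end, 150 bases) were used. The authors trimmed reads with Trimmomatic, mapped them to mm10 with TopHat2, counted them per Ensembl gene with featureCounts and deposited the counts, whole numbers without normalization. Strand and multi-mapping settings of the counting are not given in the sources used here. Sample labels gave the conditions. Paired technical replicates differed by a chi-square per gene of 1.07 to 1.10, libraries of different mice by 3.64 to 52.2, and they were summed. GENCODE M21 gave symbols for 37607 gene IDs, coordinates and exon lengths.

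Genes were filtered with filterByExpr (minimum count 10, minimum total 15) and compared by edgeR's quasi-likelihood test (two-sided, TMM normalization, 1 coefficient per condition, Benjamini-Hochberg adjustment over all genes tested, threshold 0.05) in 1 fit per experiment. SE is the absolute log2 fold change divided by the square root of F. The paper names DESeq2, which was run as an alternative. The other alternatives were RLE size factors, no filter, only the compared groups, the replicate number as a block, a minimum absolute log2 fold change of 1, unsummed technical replicates and each library left out. The tests were checked on simulated counts. Samples of the polarization experiment are paired by mouse. In the reprogramming experiment the replicate numbers paired samples in 14 comparisons, where each of the 3 correlations of same-numbered deviations from the group means was over 0.1, and not in 10. Named genes were the 9 members, up to 3 other complement genes per comparison with the largest called change (mean log2 CPM no lower than 3), and the 2 genes most like each member. Of the other complement genes, 1 is counted but not reported here. The members and lists were chosen with earlier results of these data known. Versions were R 4.3.3, edgeR 4.0.16, DESeq2 1.42.0, Python 3.11.15, pandas 2.3.3, NumPy 2.4.6, SciPy 1.17.1 and matplotlib 3.10.9.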

Additional observations from a re-analysis of the deposited data

Results flagged for a closer look

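The C1qb, Cfp and C5ar1 values below were picked because every sample moved one way in the polarization experiment and every sample the opposite way in the reprogramming experiment. The difference between the experiments was not tested, since they were sequenced separately with other read lengths. Harvest time may also differ, as the methods give 24 h for untransfected cells without naming the experiment, so these cannot be told apart. For M1-like against M0 macrophages, C1qb was higher at 24 h (log2 fold change 0.56) and lower in the untransfected cells of the reprogramming experiment (-1.16). Against M2-like macrophages it gave 0.75 at 24 h and -1.89 in the reprogramming experiment. Cfp gave 0.83 in M1-like against M0 macrophages at 24 h and -1.47 in the reprogramming experiment. C5ar1 in M2-like against M0 macrophages gave -0.97 at 24 h and 0.45 in the reprogramming experiment. All 8 values passed edgeR's test in their own experiment, on the same samples by which they were picked, so the test adds no separate support. Groups of 3 samples were not tested for outlying samples.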

How the results depend on the processing

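Of 252 pairs of a member and a comparison 114 were called. None of these changed sign under the alternatives, 96 kept the call under every alternative, and 17 of the other 18 lost it in at least 1 fit that left out a library. A minimum of 1 for the size of the log2 fold change gave 9 instead of 17 calls at 24 h, 11 instead of 20 for the knockdowns against mock, 6 instead of 13 against the negative pool, 12 instead of 20 for iM1 against the single knockdowns, 1 instead of 2 for the negative pool against mock and 0 instead of 2 for mock against untransfected cells. Without the filter on low counts there were 9 calls for mock against untransfected cells, 5 for the negative pool against mock and 2 instead of 0 for the difference of M1-like against M2-like cells between mock and untransfected samples. The replicate block gave 4 instead of 2 calls for mock against untransfected cells, and no call was lost under it. In the 10 comparisons whose numbers did not pair the samples it changed 2 member calls, C3 of mock against untransfected M0 cells (0.66, adjusted p = 0.0413) and Serping1 of the negative pool against mock (1.14, adjusted p = 0.0458). Fitting only the compared groups gave 0 calls for mock against untransfected cells, and fits without 1 library gave 0 to 4. Values that turned sign were not called: C1qa in M1-like against M0 cells at 24 h (0.06) ranged from -0.0226 to 0.2298 with 1 sample left out, below 0 without mouse 3 of M0 (-0.0226) or of M1-like cells (-0.0033) and called without mouse 1 of M0 (adjusted p = 0.0297). With 1 library left out, Cfb ranged from -2.9945 to 0.0391 in M2-like mock against M0 mock (-2.44) and from -1.3545 to 1.6349 in mock against untransfected M0 cells (1.12), and in both it turned sign without replicate 3 of M0 mock. Why calls moved was not tested.

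Counts of all called genes moved by over 1.5 times in these comparisons, among them M2-like against M0 at 24 h (4499, with 7198 for unsummed technical replicates and 2951 without mouse 2 of M0), M2-like mock against M0 mock (543, with 111 to 900), the E2f1 pool against mock (1648, with 1066 and 1097) and against the negative pool (129, with 45 to 342), the Pparg pool against the negative pool (814, with 359 to 435), the Stat6 pool against mock (1624, with 1052) and the negative pool (214, with 92 to 380), the negative pool against mock (1658, with 1042), iM1 against the Myc pool (7, with 3 to 28) and the Pparg pool (2544, with 1691), mock against untransfected M1-like (0, with 42) and M2-like cells (251, with 387), and the difference between mock and untransfected samples (160, with 306). Depth limited Cfb and Serping1 most: Cfb had at most 6 reads per library in M2-like cells without siRNA of the reprogramming experiment.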
